A study of Mus musculus with 33 samples.

Results

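Mini-colon AKP #i, an organoid line founded from tumours that had formed in an engineered colon epithelium, was compared with organoid AKP, the line in which the same mutations had been induced in ordinary organoid culture. The comparison took the 3 libraries titled Mini-colon AKP #i and the first 3 libraries titled Organoid AKP, so that 6 of the 33 libraries of the series were members, chosen by title and by the letter E that the names of their files share. Both lines are mouse colon epithelium of the AKP genotype (with Apc fl/fl and Trp53 fl/fl among its alleles), from mice that also carry Cdx2-cre ERT2, and recombination was switched on by blue light through a Cre module added to the cells (OptoCre). The control organoids carry the same alleles and were not induced. The mini-colon cells were induced inside a microfluidic channel lined with crypt-like and lumen-like epithelium, and their tumours were then expanded as organoids. The study describes line #i as enriched in tumours of the lumen, the open channel. It describes both the lumen-enriched lines and organoid AKP as slow to grow in medium without growth factors. Organoids of both lines were cultured for 3 days and kept in basal medium without growth factors for 24 h before RNA was taken.

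Line #i is 1 line, so a difference from organoid AKP cannot be told apart from a difference between any 2 independently expanded cultures. The study describes the samples of a line as independent cultures, while the labels do not say which library came from which culture, and the p-values rest on how far these libraries of 1 line differ. The letter E marks 18 libraries of 6 lines, and what the letter stands for is not given in the sources used here. Mini-colon AKP #ii, mini-colon AKP #iii and non-induced control organoids of the same letter served as further points of reference. Line #ii is a lumen line, as line #i is, and line #iii is a crypt line, so a mean of both mixes the 2 sites. Whether differences between these lines follow the site of their tumours was not tested.

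Loss of APC frees beta-catenin from destruction, and beta-catenin with TCF and LEF factors then drives the WNT target genes that keep crypt cells dividing. Growth factors of the EGF family switch on the MAPK cascade, and loss of p53 removes a brake on damaged cells. Colon tumour cells with these mutations can take up crypt stem cell, differentiated or fetal-like regenerative programmes, which share their founding mutations and differ in the genes they express.

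Counts were of QuantSeq tags, which are read from the 3′ end of polyadenylated RNA, and levels are given as CPM, counts per 1000000 of a library scaled with TMM factors. Library totals ran from 2829223 to 3381637 counts in line #i and from 2751409 to 3594398 in organoid AKP. Of the 3 organoid AKP libraries, replicate 2 stood somewhat apart from replicate 1: the squared deviations of their counts were 9.30 times the sampling noise, against 1.91 to 4.52 between the libraries of line #i. Of the counts in these 6 libraries, 4.26% fell on identifiers without a name. Epithelial identity markers, a list of 13 genes, summed to between 4900 and 5100 CPM of the unscaled total in line #i and between 4800 and 5230 in organoid AKP. Among 15 fibroblast and muscle, 17 immune, 11 endothelial and 10 neural markers, 10, 10, 5 and 6 had no count in any of the 6 libraries, and the immune markers Ptprc and Cd3e were among those at 0. The summed immune markers lay between 3.91 and 6.21 CPM in line #i and between 1.66 and 2.91 in organoid AKP, and S100a8 was the 1 immune marker past the test. In bulk RNA, fewer cells of a type and less RNA per cell cannot be told apart.

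Apc and Trp53 were measured by tags at the 3′ end of their transcripts, and the study's methods name deleted exons of both genes. Whether the tags lie outside those exons was not checked here, so these values are not used as a check of the genotype. Trp53 read 3.23, 3.21 and 3.06 CPM in line #i and 1.37, 1.31 and 3.79 CPM in organoid AKP, against a mean of 16.9 CPM in control. Apc lay between 95.4 and 99 CPM in line #i and between 97.8 and 107 CPM in organoid AKP. Neither gene passed the test between the lines (edgeR adjusted p = 0.755 for Apc and 0.565 for Trp53), and the log2 difference was -0.07 ± 0.11 (SE) for Apc and 0.48 ± 0.42 for Trp53.

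Between the lines, 1044 of 13027 genes tested passed an adjusted p of 0.05, 464 higher (3.56%) and 580 lower (4.45%) in line #i. Most of the differences were small: the median size was 0.50 log2 units among the higher genes and 0.75 among the lower. At a difference of at least 1 log2 unit, 82 genes (0.629%) were higher and 203 (1.56%) lower. The median log2 difference over all tested genes was -0.01. The test was edgeR's quasi-likelihood test with Benjamini-Hochberg adjustment over all 13027 genes, in a fit of all 18 letter E libraries with 1 coefficient per line. The libraries were then left out 1 at a time, in 6 runs. Without organoid AKP replicate 2 the count fell to 410 genes, 166 higher (1.28%) and 244 lower (1.88%), and without replicate 2 or replicate 3 of line #i to 619 and 605. Against organoid AKP replicates 4 to 6, whose file names hold the letter F, 5486 genes passed, 2662 higher (19.6%) and 2824 lower (20.8%), and there the line and the letter cannot be told apart. With all 6 organoid AKP libraries as the reference 973 genes passed, 422 higher (3.1%) and 551 lower (4.05%).

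**Figure D1:**
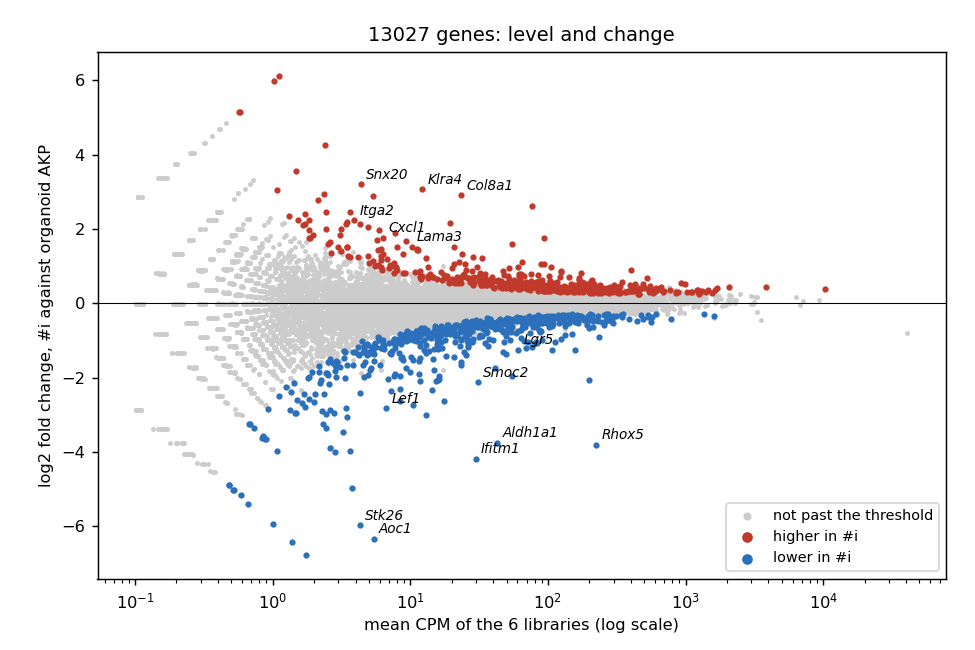
Each point is 1 of the 13027 genes, with the mean level of the 6 libraries in CPM (x axis, log scale) and the log2 fold change of line #i against organoid AKP (y axis). Genes past the threshold are coloured; the 464 higher and 580 lower genes mostly lie within 1 log2 unit of 0, and Aoc1 and Stk26 lie lowest among the labelled genes.

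The genes with the largest rise in line #i, among those at 5 CPM or more and leaving out predicted, unnamed and pseudogene symbols, were of mixed function. Krt90, a keratin gene, read 132, 133 and 130.1 CPM in line #i and 22.6, 18.6 and 22.5 CPM in organoid AKP. Its log2 difference was 2.63 ± 0.14 (adjusted p = 1.02e-17). The non-fibrillar collagen gene Col8a1 read 44.9, 43.5 and 35.6 CPM against 5.81, 7.18 and 3.79 CPM. The groups lay far apart for both genes, and Col8a1 differed by 2.91 ± 0.21 (adjusted p = 2.56e-13). Klra4, of the Klra family of lectin-like natural killer cell receptors, read 19.1, 26.3 and 20 CPM against 3.08, 1.31 and 3.25 CPM (3.07 ± 0.32). Members of that family are close copies of each other, and how the authors' counting split reads between them is not given, so the gene is uncertain. Snx20, a sorting nexin, read 5.58, 9.35 and 8.83 CPM against 0.684, 1.31 and 0.541 CPM (3.20 ± 0.46). The other 6 of the 10 were Col26a1, another collagen gene, the amino acid transporter Slc7a3, the collagen-binding integrin Itga2, the imprinted receptor adaptor Grb10, Khdc1a and the brush border cadherin Cdhr2, with log2 differences between 2.15 and 2.88. In all 10 genes no library of organoid AKP reached the lowest of line #i, which the rule for naming them required.

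Of the 10 genes with the largest fall under the same rule, some had next to no counts in line #i and others kept a measurable level. Aoc1, a diamine oxidase, had 1 count in all over the libraries of line #i and 105 over those of organoid AKP, a ratio of 107 with a 95% exact interval from 18.8 to 4260 that covers counting error only. Stk26, a kinase of the germinal centre kinase family, had 1 count against 81, and Cryba4, a crystallin, 2 against 72. Rhox5, an X-linked homeobox gene, was the most abundant of the group, at 30.2, 30.1 and 29.2 CPM in line #i and 389, 395 and 468 CPM in organoid AKP (-3.80 ± 0.29, adjusted p = 2.77e-06). Aldh1a1, a retinaldehyde dehydrogenase that makes retinoic acid, read 5.87, 3.80 and 8.49 CPM against 71.5, 81.6 and 86.6 CPM (-3.74 ± 0.17, adjusted p = 1.05e-19). The interferon-induced membrane protein gene Ifitm1 read 2.35, 2.04 and 5.09 CPM against 47.2, 69.5 and 52.5 CPM (-4.18 ± 0.41). The other 4 were the myosin kinase Mylk3, Bex4, Bend5 and Dpysl5, of a family that acts in axon guidance, with log2 differences from -3.99 to -3.06. Control organoids held Aoc1 at a mean of 129.9 CPM and Aldh1a1 at 1079 CPM, and had no count of Stk26, Cryba4 or Ifitm1. In lines #ii and #iii the means were 12.8 and 30.7 CPM for Rhox5 and 7.56 and 6.69 CPM for Ifitm1, and those of Aoc1, Stk26, Cryba4, Bex4 and Dpysl5 lay between 0.0545 and 0.776 CPM.

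Some WNT target genes, Lgr5 and Lef1 among them, were lower in line #i, and most did not pass the test. Of 23 tested members of the list of WNT targets and feedback genes, 8 fell (34.8%, against 4.45% of all genes), 1 rose and 14 did not pass, and the median log2 difference was -0.50 (all genes, -0.01). The level summed over its 24 members overlapped between the lines, at 3620 to 3910 CPM of the unscaled total in line #i and 3470 to 3880 in organoid AKP, and Ccnd1, the member that rose, was an abundant one. Lgr5, a crypt stem cell marker whose product binds R-spondins, read 30.8, 36.8 and 40.8 CPM in line #i and 79.0, 103 and 74.2 CPM in organoid AKP. Its log2 difference was -1.24 ± 0.16 (adjusted p = 7.25e-07), and no libraries overlapped. Lef1, a transcription factor that binds beta-catenin and is itself a WNT target, read 2.05, 1.75 and 1.02 CPM against 6.50, 19.9 and 8.93 CPM (-2.82 ± 0.41, adjusted p = 1.4e-05). The WNT inhibitor Apcdd1 read 6.46, 8.18 and 3.40 CPM against 13.3, 40.8 and 23 CPM (-2.07 ± 0.35). In both genes organoid AKP replicate 2 was the highest library. Axin2, a feedback scaffold of the destruction complex that was picked after its values were seen, read 63.7, 69.2 and 67.2 CPM against 90.6, 145 and 100.1 CPM (-0.74 ± 0.18, adjusted p = 0.0143), and its call was lost in 3 of the 6 runs (adjusted p up to 0.068). The member that rose was Ccnd1, which encodes cyclin D1, at 2073, 1870.0 and 1896 CPM against 1389, 1408 and 1585 CPM (0.41 ± 0.09, adjusted p = 0.00125). With organoid AKP replicate 2 left out, 4 of these members were lower, against the letter F libraries 14 were, and against all 6 organoid AKP libraries 5 were.

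Of 20 tested crypt stem cell markers, some of them also WNT targets, 6 fell (30.0%), 2 rose and 12 did not pass. Against all 6 organoid AKP libraries 2 fell. Cd44 and Sox9, which the study scores with Lgr5 for cancer stemness, did not pass. Their log2 differences were -0.18 ± 0.11 and -0.14 ± 0.09 (edgeR adjusted p = 0.388 and 0.398). Smoc2, a secreted matrix protein of stem cells, read 11.7, 12 and 10.9 CPM in line #i and 35.6, 67.2 and 48.2 CPM in organoid AKP (-2.12 ± 0.24, adjusted p = 6.31e-06). Ascl2, the transcription factor that holds cells in the stem state, read 26.1, 31.8 and 22.4 CPM against 38.3, 61.4 and 59.3 CPM (-0.98 ± 0.17, adjusted p = 0.000135). The groups did not overlap in either gene. Among WNT ligands and receptors, 2 of 25 tested members rose and 3 fell. The ligand gene Wnt7a read 12, 12.6 and 13.2 CPM against 5.81, 5.22 and 4.06 CPM (1.33 ± 0.26), and the receptor genes Fzd2 and Fzd10 fell by 1.34 ± 0.30 and 0.83 ± 0.27 on the log2 scale. Fzd10 (adjusted p = 0.0452) lost its call in 5 of the 6 runs (adjusted p up to 0.262).

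**Figure D2:**
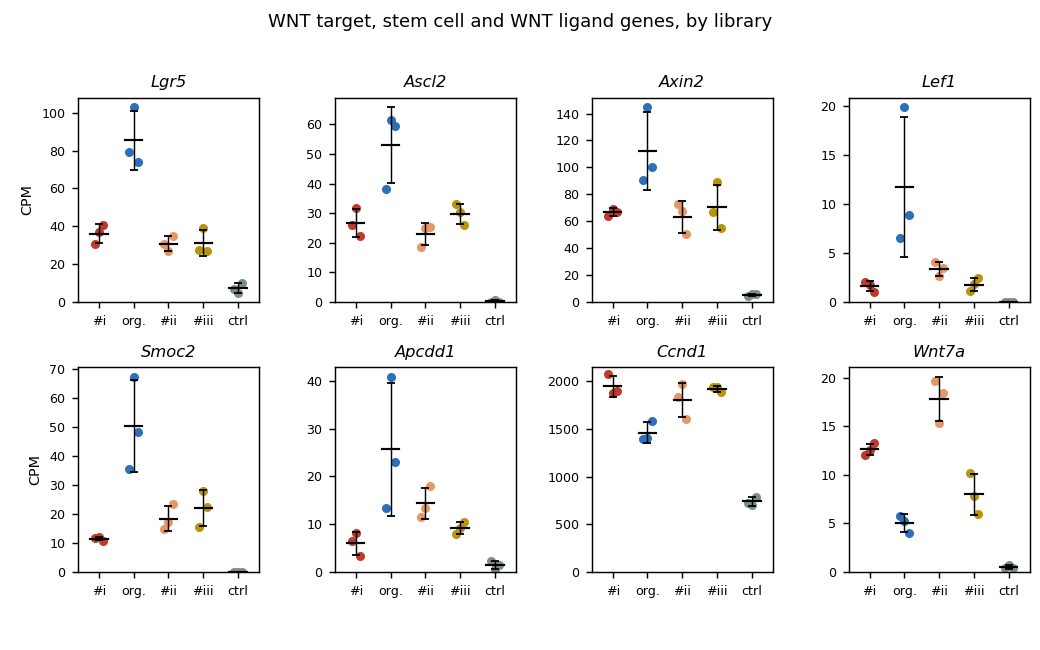
Levels of 8 genes (y axes, CPM from 0) in each of 3 libraries of line #i, organoid AKP (org.), lines #ii and #iii and control (ctrl), with the mean and SD as black bars. Lgr5, Ascl2, Axin2, Lef1, Smoc2 and Apcdd1 lay lower in every library of line #i than in any organoid AKP library, Ccnd1 and Wnt7a lay higher, and organoid AKP replicate 2 was the highest of its group in each of those first 6 genes.

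A stretch of promoter was read for these genes to show the letters to which TCF and LEF factors bind. The motif searched was CTTTGA on either strand, in the 250 bases before each transcription start in the RefSeq promoter table (build GRCm38.p6), where 13.8% of 32851 windows held it. Of the 23 tested WNT list members, 15 were in the table and 3 held the motif: Lef1, Sp5 and Tnfrsf19. Lef1 is shown because it fell the most of these 3, against -0.42 ± 0.19 for Sp5 (adjusted p = 0.181) and -0.37 ± 0.11 for Tnfrsf19 (adjusted p = 0.0246, lost without organoid AKP replicate 2). The table has 4 starts for Lef1. Which of them these cells use, and whether the start shown lies within the gene, was not tested. Of the 4 starts, 1 held the motif. Its window, on the plus strand at chr3:131156044-131156293, holds 2 copies on the opposite strand, in capitals, which begin 180 and 120 bases before the start:
Lef1: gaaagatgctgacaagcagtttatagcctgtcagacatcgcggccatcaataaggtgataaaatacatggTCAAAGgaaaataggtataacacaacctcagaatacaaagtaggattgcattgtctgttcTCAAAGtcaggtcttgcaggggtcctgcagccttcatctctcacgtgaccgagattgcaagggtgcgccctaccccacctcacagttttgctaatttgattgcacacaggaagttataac

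Of 40 tested colonocyte and brush border genes, 1 rose and 4 fell, against 3.56% and 4.45% of all genes, and the median log2 difference was -0.21. Car2, a carbonic anhydrase of absorptive cells, read 172, 146 and 183 CPM in line #i and 247, 287 and 245 CPM in organoid AKP (-0.64 ± 0.10, adjusted p = 1.95e-05). Myo7b, a brush border myosin, fell by 0.52 ± 0.12, and Cdhr2 rose. Of 17 goblet cell genes, 3 fell and none rose, with 1 higher at an unadjusted p under 0.05 and 0 by DESeq2 or limma-voom. The median over the goblet list was -0.70, and 1 of its 17 members had a log2 difference above 0. Reg4, a secreted lectin of goblet and endocrine cells, read 31.1, 20.2 and 16.6 CPM against 29.4, 146 and 87.1 CPM. Its groups overlapped, the log2 difference of -1.94 ± 0.47 (adjusted p = 0.0253) lost its call in 4 of the 6 runs, and it stood at 2.67 against the letter F libraries. Foxa3, a transcription factor of secretory cells, differed by -0.71 ± 0.23 (adjusted p = 0.0447) and lost its call in 5 of the 6 runs. No goblet member passed without organoid AKP replicate 2, without replicate 2 or 3 of line #i, or against all 6 organoid AKP libraries. DESeq2 and limma-voom each called 1 goblet member lower, and against the letter F libraries 5 were higher and none lower. Of the colonocyte list, 9 members were higher and 4 lower against the letter F libraries. Against all 6 organoid AKP libraries 1 colonocyte member was higher and 1 lower. Avil, an actin-binding gene of tuft cells, read 146, 151 and 135 CPM against 56.1, 32 and 40.3 CPM (1.76 ± 0.21, adjusted p = 7.86e-05), the 1 called gene among 7 tested enteroendocrine and tuft cell genes, of which 30 more stood below the filter on low counts.

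Homeobox and regional identity factors fell in 6 of 47 tested members (12.8%) and rose in none; DESeq2 called 0 higher, limma-voom 1, and 1 was higher at an unadjusted p under 0.05. Isx, an intestinal homeobox factor that restrains retinoid uptake, read 35.8, 35.9 and 35.0 CPM in line #i and 80.4, 63.0 and 68.5 CPM in organoid AKP (-0.99 ± 0.12, adjusted p = 9.15e-08). The groups did not overlap, and lines #ii and #iii averaged 66.8 and 54.0 CPM. Hoxd4, a positional factor, read 12, 3.80 and 5.77 CPM against 11.3, 14 and 15.7 CPM, so that its groups overlapped (adjusted p = 0.0488), and its call was lost in 4 of the 6 runs. Of the list, 2 members fell without organoid AKP replicate 2, and against all 6 organoid AKP libraries 3 fell and 2 rose.

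A group of fetal-like and regenerative genes rose in line #i. Of 28 tested members, 12 rose (42.9%, against 3.56% of all genes) and none fell, with 1 lower at an unadjusted p under 0.05 and none lower by DESeq2 or limma-voom. The median log2 difference was 0.32. Anxa8, a phospholipid-binding annexin, read 50.5, 68.1 and 73.3 CPM in line #i and 45.5, 32.6 and 37.9 CPM in organoid AKP (0.72 ± 0.17, adjusted p = 0.00501). Control organoids averaged 171 CPM of Anxa8, above both lines. Summed over the list, control lay at 7550 to 8110 CPM of the unscaled total, line #i at 10500 to 10700 and organoid AKP at 7420 to 9010. Anxa8 counted in the list of annexins too, and Areg in that of EGF ligands. Without organoid AKP replicate 2 the count of higher members was 6, and Anxa8 then had an adjusted p of 0.0557. Against the letter F libraries 12 members were higher and 6 lower, and against all 6 organoid AKP libraries 5 were higher and 2 lower.

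Ligands of the EGF receptor were among the genes that rose. Of 13 tested members of the receptor family and its ligands, 3 rose (23.1%, against 3.56% of all genes) and none fell. At an unadjusted p under 0.05, 1 was lower, and DESeq2 and limma-voom each called 1 lower. Hbegf, heparin-binding EGF, read 278, 189 and 197 CPM in line #i and 118, 119 and 138 CPM in organoid AKP (0.82 ± 0.12, adjusted p = 6.51e-06). Areg, amphiregulin, read 152, 158 and 169 CPM against 106, 78.3 and 81.2 CPM (0.85 ± 0.24, adjusted p = 0.0448). Ereg, epiregulin, read 53.1, 57.5 and 51.6 CPM against 47.2, 29.7 and 36.0 CPM (0.53 ± 0.14, adjusted p = 0.0159). All 3 were higher in every library of line #i than in any of organoid AKP, but the call was lost in 5 of the 6 runs for Areg (adjusted p up to 0.194) and in 3 for Ereg (up to 0.176). Among 37 tested genes of ERK output and the immediate early response, 5 rose (13.5%) and 1 fell. Dusp7, a phosphatase that acts on ERK, read 36.1, 45.9 and 39.4 CPM against 23.6, 17.6 and 20.8 CPM (0.97 ± 0.18), and the AP-1 subunit genes Junb and Fosl1 rose by 0.56 ± 0.09 and 0.55 ± 0.12. Against the letter F libraries Junb was at -0.14. Against them 6 of the ERK genes were higher and 14 lower, and against all 6 organoid AKP libraries 1 was higher. Of 22 other receptor tyrosine kinases 1 rose (4.55%) and 3 fell (13.6%, against 4.45% of all genes). Of 27 growth factors for them 1 fell (3.7%). Fgfrl1, an FGF receptor without a kinase domain, read 67.2, 65.2 and 55.7 CPM against 113, 191 and 149 CPM (-1.26 ± 0.15, adjusted p = 8.43e-07).

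Of 37 tested chemokine, cytokine and innate genes, 10 rose in line #i (27.0%), 27 did not pass and none fell, with 3 lower at an unadjusted p under 0.05 and none lower by DESeq2 or limma-voom. Ptgs2, the inducible cyclooxygenase that makes prostaglandins, read 11.7, 19.3 and 18.7 CPM in line #i and 7.87, 6.53 and 4.33 CPM in organoid AKP (1.43 ± 0.28, adjusted p = 0.000754). The neutrophil chemokine genes Cxcl1 and Cxcl5 stood at low levels. Cxcl1 read 6.75, 11.4 and 11.6 CPM against 3.42, 1.31 and 3.79 CPM (1.76 ± 0.38, adjusted p = 0.00231), and Cxcl5 read 12, 5.26 and 9.17 CPM against 2.39, 3.59 and 2.17 CPM (1.70 ± 0.38). Tnf, picked after its values were seen, read 7.33, 6.43 and 8.83 CPM against 1.71, 1.96 and 5.95 CPM (1.14 ± 0.35, adjusted p = 0.0339), and its call was lost in 4 of the 6 runs, with an adjusted p of 0.222 without organoid AKP replicate 2. Control organoids held Cxcl5 at 146 CPM and Tnf at 27.9 CPM, above both lines. S100a8, a calcium-binding protein of neutrophils that epithelium can also make, read 2.93, 2.34 and 3.40 CPM against 0.684, 0.979 and 0 CPM (2.40 ± 0.71, adjusted p = 0.0283, and 0.151 without organoid AKP replicate 3), and it counted in this list and in the immune markers. The summed immune markers were higher in line #i as given above, and their part in the chemokine values was not tested. In the run without organoid AKP replicate 2, 6 members of the list rose, and against all 6 organoid AKP libraries 5 did.

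The promoters of Cxcl1 and Cxcl2 are shown because these neighbouring chemokine genes share an NF-kappaB (kB) site in the same setting. The motif searched was GGAATTTCC on either strand, held by 0.286% of the 32851 windows of 250 bases. Of the 37 tested list members 31 were in the table, and Cxcl1, Cxcl2, Cxcl10, Nfkbia and Tnfaip3 held the motif. Of these only Cxcl1 passed the test, and Cxcl2 read 5.58, 4.09 and 3.40 CPM against 1.03, 2.61 and 1.35 CPM (1.39 ± 0.48, adjusted p = 0.0652). The site, in capitals, begins 70 bases before the start in Cxcl1 (plus strand, chr5:90890995-90891244) and 96 bases before it in Cxcl2 (plus strand, chr5:90903649-90903898):
Cxcl1: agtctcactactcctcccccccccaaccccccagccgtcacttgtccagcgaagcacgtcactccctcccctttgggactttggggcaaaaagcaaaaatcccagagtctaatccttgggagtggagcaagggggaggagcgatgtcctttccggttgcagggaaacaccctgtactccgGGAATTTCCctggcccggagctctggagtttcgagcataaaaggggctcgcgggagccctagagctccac
Cxcl2: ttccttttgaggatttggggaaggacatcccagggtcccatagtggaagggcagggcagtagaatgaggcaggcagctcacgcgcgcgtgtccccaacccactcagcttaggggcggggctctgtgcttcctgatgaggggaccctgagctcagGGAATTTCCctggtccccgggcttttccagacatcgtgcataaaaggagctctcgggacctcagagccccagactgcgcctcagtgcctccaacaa

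Genes of matrix, integrins and proteases rose in 10 of 42 tested members (23.8%) and fell in 3. Itga2, the alpha chain of a collagen receptor, read 6.75, 5.26 and 7.47 CPM in line #i and 1.37, 0.326 and 2.17 CPM in organoid AKP (2.24 ± 0.42, adjusted p = 0.000285). Lama3, a laminin alpha chain, read 15.6, 14 and 16.0 CPM against 4.10, 6.20 and 5.41 CPM (1.52 ± 0.24, adjusted p = 1.89e-05). Timp1, an inhibitor of matrix metalloproteinases, read 28.5, 29.2 and 21.7 CPM against 18.1, 11.4 and 11.9 CPM (0.95 ± 0.20). The groups did not overlap in any of the 3, but Lama3 stood at -1.21 log2 units against the letter F libraries. Of 33 caveolins, galectins, S100 proteins and annexins, 10 rose (30.3%) and 3 fell. Cav1, the coat protein of caveolae, read 114, 128 and 120.5 CPM against 64.0, 54.2 and 56.6 CPM (1.06 ± 0.12, adjusted p = 2.03e-08), and stood at -0.10 against the letter F libraries. Lgals1, galectin 1, moved the other way, at 54.0, 57.3 and 49.6 CPM against 123, 106 and 111 CPM (-1.07 ± 0.12, adjusted p = 3.93e-08). In each of these lists 6 members rose without organoid AKP replicate 2, and against all 6 organoid AKP libraries 3 of the first list and 4 of the second rose.

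**Figure D3:**
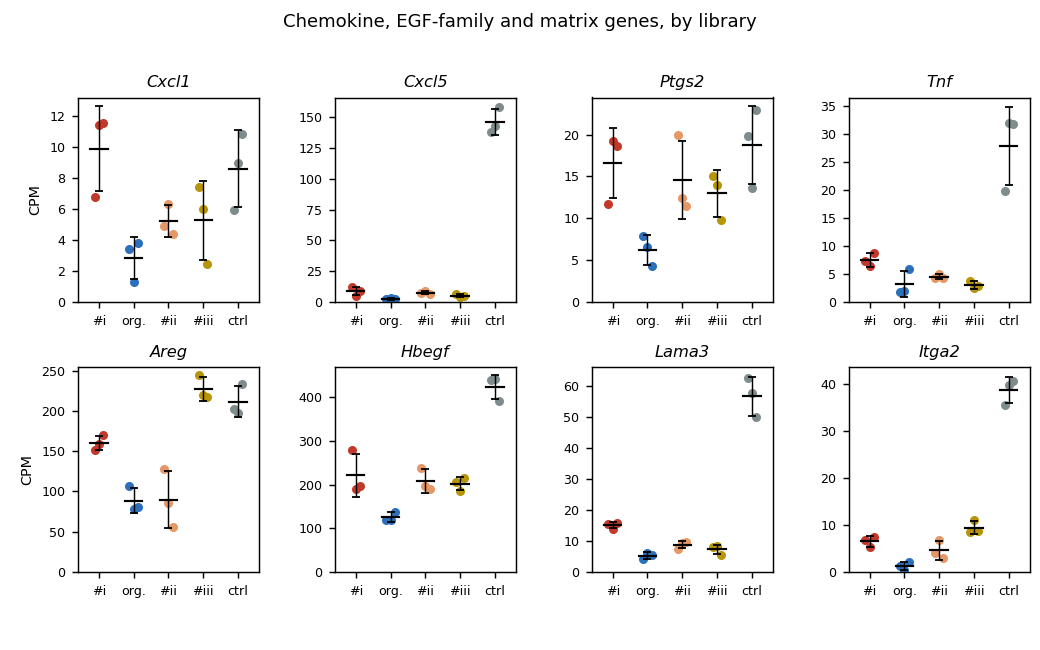
Levels of 8 genes (y axes, CPM from 0) in each of 3 libraries of line #i, organoid AKP (org.), lines #ii and #iii and control (ctrl), with the mean and SD as black bars. All 8 genes were higher in each library of line #i than in any library of organoid AKP, and all but Cxcl1 had a higher mean still in control.

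Of 43 tested mitotic genes, 12 fell in line #i (27.9%) and none rose, with 0 higher at an unadjusted p under 0.05 and 0 by DESeq2 or limma-voom, and the median log2 difference was -0.22. Summed over the list, the level was 9230 to 9350 CPM of the unscaled total in line #i and 10900 to 11400 in organoid AKP. Cenpf, a kinetochore protein of dividing cells, read 456, 466 and 476 CPM against 575, 748 and 650.3 CPM (-0.50 ± 0.10, adjusted p = 0.000866). Mki67, which encodes the proliferation marker Ki-67, read 329, 327 and 341 CPM against 422, 477 and 435 CPM (-0.42 ± 0.10, adjusted p = 0.00304). Kif20b, a kinesin of cell division, fell by 0.46 ± 0.09. With replicate 2 of organoid AKP left out, 5 members fell, and against all 6 organoid AKP libraries 5 did. Of 43 genes of DNA replication and S phase 1 was lower, the ligase gene Lig1 (-0.43 ± 0.10), whose groups overlapped and whose call was lost in 2 of the 6 runs, and the median was 0.01. Against the letter F libraries 30 of these 43 were higher. Cdkn2a, which encodes the inhibitors p16 and p19 ARF, read 326, 318 and 254 CPM against 216, 224 and 244 CPM (0.39 ± 0.10, adjusted p = 0.00811), and its call was lost without line #i replicate 1 (adjusted p = 0.0545) or replicate 2 (0.0521). It was 1 of 2 cell cycle inhibitors of 21 tested that rose (9.52%), and 2 of 28 p53 targets rose (7.14%, against 3.56% of all genes). Of these Perp, a junction protein that p53 induces, read 219.5, 214 and 233 CPM against 165, 132 and 167 CPM (0.52 ± 0.09, adjusted p = 0.000214).

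Genes of MYC and ribosome biogenesis rose in 10 of 39 tested members (25.6%) and fell in none, with 1 lower at an unadjusted p under 0.05, 1 lower by DESeq2 and 0 by limma-voom. The median log2 difference was 0.27. Odc1, the first enzyme of polyamine synthesis and a MYC target, read 88.3, 75.1 and 86.9 CPM in line #i and 57.1, 48.6 and 60.6 CPM in organoid AKP (0.59 ± 0.13, adjusted p = 0.00182). The ribosome assembly factors Bop1 and Wdr12 rose by 0.54 ± 0.15 and 0.47 ± 0.11. Without organoid AKP replicate 2 the count of higher members was 1, with adjusted p = 0.072 for Bop1, whose call was lost in 2 of the 6 runs, and 0.0853 for Wdr12, against the letter F libraries it was 29, and against all 6 organoid AKP libraries it was 6. ATF4 amino acid stress genes rose in 8 of 32 (25%) and fell in none, with 1 lower at an unadjusted p under 0.05 and 0 by DESeq2 or limma-voom. Ddit3, the stress transcription factor CHOP, read 139, 122 and 117 CPM against 87.2, 81.6 and 79.0 CPM (0.61 ± 0.11, adjusted p = 0.000289). The stress gene Nupr1 rose by 0.52 ± 0.13, and without organoid AKP replicate 2, where 4 members of the list rose (3 against all 6 organoid AKP libraries), its adjusted p was 0.072, and without line #i replicate 1 it was 0.0657.

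The lipid synthesis genes that passed the test were all lower in line #i. Of 25 cholesterol synthesis and uptake genes 5 fell (20%) and none rose, and of 27 fatty acid synthesis genes 4 fell (14.8%) and none rose; DESeq2 and limma-voom called 0 of either list higher, and 0 and 1 were higher at an unadjusted p under 0.05. Fads2, a fatty acid desaturase, read 60.7, 72.7 and 62.8 CPM in line #i and 91.3, 128 and 101 CPM in organoid AKP (-0.70 ± 0.12, adjusted p = 6.64e-05). Scd1 and Scd2, close copies that encode stearoyl-CoA desaturases, differed by -0.68 ± 0.17 and -0.36 ± 0.10. Insig1, which holds back sterol synthesis, fell by 0.55 ± 0.15 and stood at 0.46 against the letter F libraries. The sterol enzyme genes Tm7sf2 and Mvd fell by 0.74 ± 0.23 and 0.56 ± 0.16. The groups of Mvd overlapped, and the calls of Tm7sf2, Mvd and Scd2 were each lost in 4 of the 6 runs. Without organoid AKP replicate 2 the counts were 0 and 1, against all 6 organoid AKP libraries they were 1 and 0, and the adjusted p was 0.0545 for Scd1. The call of Insig1 was lost in 3 of the 6 runs (adjusted p up to 0.138). Fatty acid oxidation and PPAR targets rose in 3 and fell in 3 of 27 (11.1% each, against 3.56% and 4.45% of all genes). Ppargc1a, the coactivator that drives mitochondrial genes, read 10.9, 7.60 and 12.2 CPM against 19.1, 21.2 and 24.1 CPM (-1.09 ± 0.20, edgeR adjusted p = 0.000236). Acot1, an acyl-CoA thioesterase, fell by 1.35 ± 0.33. Angptl4, a secreted inhibitor of lipoprotein lipase, rose by 1.53 ± 0.41. The call was lost in 2 of the 6 runs for Acot1 (adjusted p up to 0.084) and in 3 for Angptl4 (up to 0.0909).

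Glycolysis and hypoxia genes fell in 6 of 34 (17.6%) and rose in none, with 0 higher at an unadjusted p under 0.05 and 0 by DESeq2 or limma-voom. Ankrd37, a hypoxia target, read 5.28, 5.26 and 3.73 CPM against 14.7, 28.1 and 12.2 CPM (-1.91 ± 0.38, adjusted p = 0.00263). Egln3, an oxygen sensor that is itself induced by hypoxia, read 47.8, 50 and 41.1 CPM against 82.1, 132 and 73.9 CPM (-1.04 ± 0.27, adjusted p = 0.0343). In both, organoid AKP replicate 2 was the highest library, and without it 2 members of the list fell. The call of Egln3 was lost in 4 of the 6 runs (adjusted p up to 0.138). The carbonic anhydrase gene Car12 fell by 0.78 ± 0.22, lost its call in 4 of the 6 runs (adjusted p up to 0.109) and stood at 0.13 against the letter F libraries, where 26 members of the list were lower. Of 47 antioxidant and glutathione genes 6 fell (12.8%) and 2 rose, and Aldh1a1 was 1 of those that fell. Gstm1, a glutathione transferase with close copies, read 18.2, 11.4 and 12.9 CPM against 31.1, 40.5 and 39.2 CPM (-1.38 ± 0.18), and its neighbour Gstm2 fell by 1.23 ± 0.24 and stood at 0.06 against the letter F libraries. Gpx2, the gut glutathione peroxidase that the study links to stemness, read 198, 206 and 211 CPM against 264, 333 and 327 CPM (-0.59 ± 0.09, adjusted p = 2.97e-05). Of 40 genes of the TGF-beta and BMP pathway 1 rose (2.5%) and 2 fell (5.0%), near the 3.56% and 4.45% of all genes. Id3, a BMP target, read 5.28, 5.55 and 6.45 CPM against 13, 48.0 and 13.5 CPM (-2.09 ± 0.51, adjusted p = 0.0242), and its call was lost in 3 of the 6 runs (adjusted p up to 0.0817). Id2, another, read 168, 139.9 and 152 CPM against 178, 289 and 218 CPM (-0.57 ± 0.11), and Bmp8b, a ligand, rose by 0.43 ± 0.12, and its call was lost in 3 of the 6 runs (adjusted p up to 0.254).

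**Figure D4:**
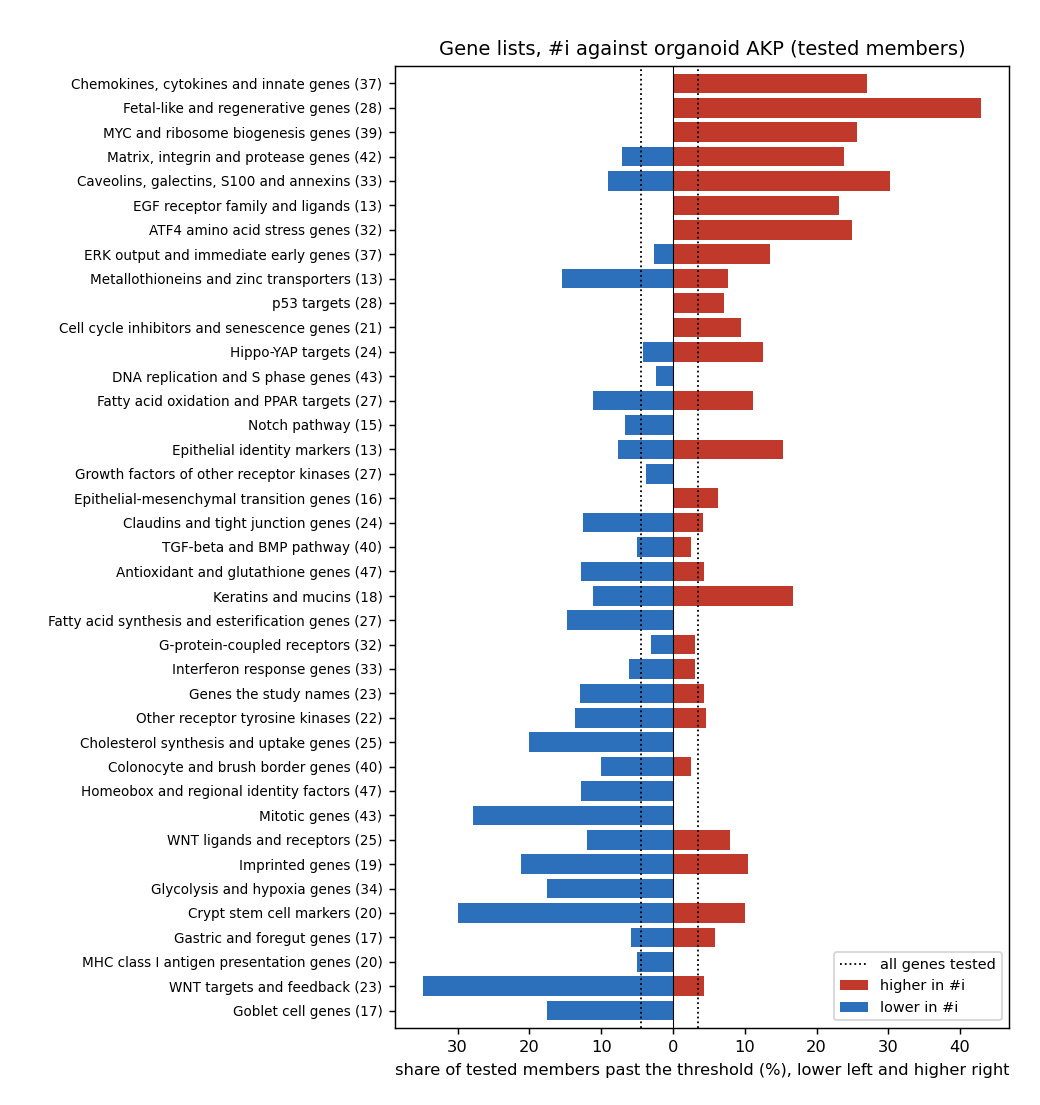
Share of tested members of each gene list past the threshold, higher in line #i to the right and lower to the left (x axis, percent), with the number of tested members in brackets and lists ordered by their median log2 difference. Dotted lines mark the shares over all genes, 3.56% higher and 4.45% lower; fetal-like (42.9%) and chemokine genes (27.0%) extend to the right and WNT targets (34.8%) and mitotic genes (27.9%) to the left.

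Among the other lists, gastric and foregut genes rose in 1 and fell in 1 of 17 tested, G-protein-coupled receptors in 1 and 1 of 32, interferon response genes in 1 and 2 of 33, MHC class I genes in 0 and 1 of 20, Notch genes in 0 and 1 of 15 and Hippo-YAP targets in 3 and 1 of 24. Claudins and tight junction genes rose in 1 and fell in 3 of 24, genes of the epithelial-mesenchymal transition in 1 and 0 of 16, imprinted genes in 2 and 4 of 19, keratins and mucins in 3 and 2 of 18, metallothioneins and zinc transporters in 1 and 2 of 13, epithelial identity markers in 2 and 1 of 13, and genes named by the study in 1 and 3 of 23. Over all genes tested, by comparison, 3.56% rose and 4.45% fell. Within these lists, Ddah1, a Hippo-YAP target that breaks down methylarginines, read 140.3, 131 and 145 CPM in line #i and 70.5, 73.8 and 67.4 CPM in organoid AKP (0.97 ± 0.12, adjusted p = 2.44e-07). Hes6, a Notch-related transcription factor, read 91.5, 87.6 and 75 CPM against 108, 137 and 146 CPM (-0.62 ± 0.11). H2-Q7, a class I gene with close copies, read 4.40, 4.09 and 3.73 CPM against 6.84, 11.4 and 12.4 CPM (-1.33 ± 0.28). None of 8 mitochondrially encoded genes passed, and 0 had an unadjusted p under 0.05, nor were any called by DESeq2 or limma-voom. The same was true of the 1 fibroblast and the 4 endothelial markers tested, and of the 3 neural markers except that 1 had an unadjusted p under 0.05.

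Of 4 Y-linked genes, 3 fell in line #i and none passed against all 6 organoid AKP libraries. Ddx3y, an RNA helicase, read 59.3, 53.5 and 70.3 CPM in line #i and 92.3, 89.4 and 99.3 CPM in organoid AKP (-0.62 ± 0.12, adjusted p = 0.000329). The histone demethylase genes Kdm5d and Uty fell by 0.73 ± 0.22 and 0.82 ± 0.26 (adjusted p = 0.0326 and 0.0419), and their calls were lost in 4 and 5 of the 6 runs (adjusted p up to 0.32 and 0.176). Eif2s3y, a translation initiation factor picked after its values were seen, read 18.8, 14.3 and 18.3 CPM against 27.4, 20.9 and 17.3 CPM and did not pass (adjusted p = 0.374). Summed over these 4 genes, the level was 93.3, 83.8 and 103 CPM in line #i and 143, 142 and 140 CPM in organoid AKP, and the means were 159, 173 and 206 CPM in lines #ii and #iii and in control. Each of the 4 genes has a near copy on the X chromosome. Against the letter F libraries Ddx3y stood at 0.49 and Eif2s3y at 0.47. Over genes at a mean of 10 CPM or more in the 6 libraries, the median log2 difference lay between -0.03 and 0.05 on the 19 autosomes. It was -0.03 on the X chromosome and -0.48 over the 4 Y chromosome genes at that level. Uty, at means of 6.59 and 11.7 CPM in the 2 lines, was not among them, so they are not the 4 genes summed above.

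Levels in lines #ii and #iii were set beside those of line #i. They share line #i, and for some values organoid AKP, with the comparison above, so the values are set side by side only. Against the mean of the log levels of lines #ii and #iii, 418 genes (3.21%) were higher in line #i and 372 (2.86%) lower. Most WNT and stem cell genes named above did not pass this test. Lgr5 averaged 30.8 CPM in line #ii and 31.1 in line #iii, and its difference from their mean was 0.20 ± 0.14 (adjusted p = 0.529). The values were 0.03 ± 0.16 for Ascl2 and -0.01 ± 0.16 for Axin2, and Smoc2 was lower in line #i (-0.84 ± 0.23, adjusted p = 0.0363). Of the WNT targets 2 were higher in line #i than that mean and 1 was lower, and of the mitotic genes 3 were higher and 1 lower. Fetal-like genes were higher in 8 and lower in 0, while Areg (0.18 ± 0.20, adjusted p = 0.726) did not pass. Chemokine and cytokine genes were higher in 3 and lower in 1, caveolins, galectins, S100 proteins and annexins higher in 10 and lower in 0, and p53 targets higher in 1 and lower in 8. The summed p53 targets lay at 1310 to 1430 CPM of the unscaled total in line #i. In line #ii they lay at 1120 to 1360 CPM and in line #iii at 1890 to 2020 CPM. For the fetal-like genes the sums were 10500 to 10700 CPM in line #i, 10100 to 10800 in #ii and 8240 to 8710 in #iii. In both sums line #i overlapped line #ii and not line #iii.

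Some genes passed the test in the same direction against organoid AKP and against the mean of the other lines. Aldh1a1 averaged 164 CPM in line #ii and 36.2 CPM in line #iii, and line #i differed from their mean by -3.68 ± 0.16 (adjusted p = 6.07e-21). Ptprz1, a receptor phosphatase, read 14.7, 13.7 and 14.3 CPM in line #i, 5.13, 3.59 and 4.6 CPM in organoid AKP, and means of 2.41 and 4.34 CPM in lines #ii and #iii (2.10 ± 0.23 above them), but stood at -0.14 against the letter F libraries of organoid AKP. Klra4 averaged 2.11 and 7.82 CPM there (2.49 ± 0.24). Cav1 averaged 46.6 and 61.0 CPM there (1.18 ± 0.10, adjusted p = 3.67e-12). Sdc2, a heparan sulphate proteoglycan, read 2.93, 2.04 and 3.40 CPM in line #i, 17.1, 14 and 10.8 CPM in organoid AKP, and means of 11.4 and 8.31 CPM in lines #ii and #iii (-1.81 ± 0.32). Dnajc6, a clathrin uncoating factor, Adam19, a metalloproteinase, and Bend5 differed from that mean by -1.44 ± 0.33, -1.86 ± 0.30 and -2.18 ± 0.53.

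A mean over 2 lines can hide lines that differ from each other. Col8a1 averaged 123 CPM in line #ii and 1.48 CPM in line #iii, Krt90 385 and 5.41 CPM, and Khdc1a 0.759 and 53.6 CPM, so that line #i lay between the 2 lines in each and still differed from their mean. Col26a1 averaged 0.247 and 7.37 CPM. Cdkn2a averaged 291 CPM in line #ii and 16.3 CPM in line #iii, and the difference of 2.10 ± 0.09 rested on line #iii. Against line #ii alone 1673 genes passed and against line #iii alone 1032, settings added after the data were seen. Line #ii held chromosomes 16 and 19 above organoid AKP, with medians of 0.39 and 0.43 over their genes, and the medians of line #i against the mean of both lines were -0.19 and -0.24 there. Of the 372 genes lower in line #i against that mean, 50 lay on chromosome 16 and 83 on chromosome 19.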

How the data were processed

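The deposited files held whole-number counts per Ensembl gene for each library, made by the authors from QuantSeq 3′ reads. The gene counter, its annotation and its use of strand are not given in the sources used here, and the submitters' processing notes name R 4.1.2, edgeR and limma for the authors' own analysis. Of 32285 identifiers, 31674 were named from GENCODE M39, and 611 without a name stayed in the library sizes and tests under their identifiers. Genes at 1 CPM or more in at least 3 of the 18 letter E libraries were tested with edgeR 4.0.16 (TMM scaling, robust quasi-likelihood F test, R 4.3.3), with Benjamini-Hochberg adjustment and a threshold of 0.05. Errors are standard errors of the fitted log2 difference. DESeq2 1.42.0 and limma-voom (limma 3.58.1), other scaling, filters, samples and left-out libraries were alternatives. The code was tested on simulated data.

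Genes were named as the 10 largest called changes in each direction at 5 CPM or more with no overlap, up to 3 called members of each list, genes the study names, and the 5 largest shared changes against the other mini-colon lines. Predicted, clone-named, unnamed and pseudogene symbols were left out of the largest and shared changes. Genes outside that rule were Axin2, Ccnd1, Cxcl2, Tnf, S100a8, Sp5, Tnfrsf19 and Eif2s3y, chosen after their values were seen. The members and the lists were chosen with earlier results of these data known. Some items are not reported here.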

Additional observations from a re-analysis of the deposited data

How the results depend on the processing

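Counts of called genes against organoid AKP stayed within 1.5 times 1044 with DESeq2 (929), limma-voom (962), DESeq2 size factors (1049), no filter (1209), the compared lines alone (979), all 33 libraries (1315) and all 6 organoid AKP libraries as reference (973), but 497 of the 1044 genes were among those 973, and 37 of the named genes lost their call there. Leaving out 1 library gave 410 to 1237, and the letter F libraries as reference 5486, of which 718 were among the 1044. Against the mean of lines #ii and #iii the count of 790 ranged from 419 (without line #i replicate 2) to 883 over left-out libraries, and was 1673 against line #ii alone. The cause of these shifts was not tested. With the letter F reference the log2 difference changed sign to 2.67 for Reg4, 0.044 for Foxa3, 0.22 for Hoxd4, -0.14 for Junb, 0.11 for Lig1, 0.46 for Insig1, 0.13 for Car12, 0.057 for Gstm2, 0.056 for Sp5, -1.21 for Lama3, -0.10 for Cav1, 0.49 for Ddx3y, 0.47 for Eif2s3y and -0.14 for Ptprz1. With all 6 organoid AKP libraries it was -0.50 for Lama3 and 0.048 for Eif2s3y. Replicate numbers did not pair the libraries: deviations of same-numbered libraries of the 2 lines correlated at -0.22, 0.02 and -0.09. With the replicate number as a block, 1035 and 742 genes passed in the 2 comparisons, 995 and 730 of them shared with the fits without it. With 2751409 to 3594398 counts a library, genes of a few CPM rest on few counts, and differences there were hard to detect.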
